A study of Mus musculus with 6 samples.

Results

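The genes described here are 9 genes of tryptophan breakdown and of the receptor that senses its products: Ido1, Ido2, Tdo2, Afmid, Kmo, Kynu, Haao, Il4i1 and Ahr. They are 9 of the 55536 genes counted in each tumor, found by their symbols in the deposited tables, and each symbol matched 1 gene. The list was chosen from pathway knowledge after Ido2 was already known to be among the most strongly lowered genes of this same comparison, so it was selected on measured values of that contrast. The differences of the 9 genes between the groups are therefore given as a description, without p-values.

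RNA was sequenced from 6 melanomas of B16 cells, a pigmented melanoma line of the C57BL/6 mouse, grown under the skin of C57BL/6J mice. One group, vector control, had 3 tumors of B16 cells that carry a control vector. The other, ATM KO B16 (called ATM knockout), had 3 tumors of B16 cells knocked out for ATM, a kinase of the response to broken DNA. About 100000 cells were inoculated per mouse in both groups, and tumors were taken on day 13. The labels do not state how ATM was disrupted, whether the knockout line is 1 clone, the age of the mice, or whether every tumor grew in its own animal. P-values thus measure the spread between these tumors, and the knockout cannot be told apart from the line that carries it. The title of the series links ATM loss to leakage of mitochondrial DNA, cGAS-STING signaling and immunotherapy, and the question here is how transcripts of tryptophan metabolism differ between the tumor groups.

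Most tryptophan that is not built into protein is broken down along the kynurenine pathway. Its opening step is made by the dioxygenases IDO1, IDO2 or, mainly in liver, TDO2. AFMID then releases kynurenine, KMO and KYNU carry it onward, and HAAO forms the precursor of quinolinic acid and NAD. IL4I1, a secreted amino acid oxidase of antigen-presenting cells, converts tryptophan by another route. Kynurenine and the products of IL4I1 bind AHR, a ligand-activated transcription factor, and in tumors IDO1 activity is known for restraining T cells by depleting tryptophan and by making kynurenine.

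Libraries held 22101124 to 29037715 counts on genes, and 15696 genes passed a filter on low counts and were tested. Levels are CPM, a library's counts scaled to a common total, after TMM correction of that total. A log2 fold change is the knockout level minus the control level, with its standard error (SE), from 1 edgeR quasi-likelihood fit over all genes, and "called" means a Benjamini-Hochberg adjusted p below 0.05 over all of them. Atm itself (chromosome 9, 53439149 to 53536740) was read at 95.5 to 110.9 CPM in the control and 97.2 to 132.2 CPM in the knockout tumors (0.10 ± 0.13, edgeR adjusted p = 0.707), so its gene-level count does not show the knockout and the groups are named from their labels. The tumors differed in the levels of cell type markers, and the part of these levels in the results was not tested. Summed CPM of 8 macrophage markers was 450.3, 980.1 and 1260 in control tumors 1 to 3, against 840.5 to 1117 in the knockout tumors, and that of 6 fibroblast markers was 274.6, 2109 and 2991 against 1318 to 1531. Melanocyte markers, all 7 of them present in every tumor, summed to 18811 to 27174 CPM in control tumors, against 18822 to 19058 CPM in knockout tumors. Of the 7, 1 (Dct) was called lower, beside 2.75% of all tested genes, while 4 were higher in mean in the knockout tumors. Summed levels did not overlap for 6 T cell markers (27.7 to 37.8 CPM in control, 38.1 to 81.6 CPM in knockout tumors). The same held for 5 endothelial markers (146.3 to 254.9 against 118.3 to 144.5 CPM), and none of these genes was called singly. Both gaps were narrow, and the lists are named because they did not overlap, beside 29.7% of all tested genes without overlap. Skeletal muscle markers summed to 21.2 to 6442 CPM across tumors. Of 6 hepatocyte markers Serpina1a and Fgb were at 0 in all tumors, and the list summed to no more than 0.960 CPM. In such bulk samples, fewer cells of a type and less RNA per cell cannot be told apart.

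Ido2 was the member with the lowest knockout level relative to control. Vector control tumors 1, 2 and 3 held 85, 104 and 186 Ido2 counts, or 3.76, 4.76 and 7.70 CPM. ATM knockout tumors 1, 2 and 3 held 16, 9 and 22 counts, or 0.656, 0.322 and 0.753 CPM. All 3 knockout tumors lay far below all 3 control tumors, and the groups did not overlap. The means were 5.41 ± 2.05 and 0.577 ± 0.226 CPM (SD, n = 3 per group), a 9.30-fold lower level in the knockout tumors with a log2 fold change of -3.22 ± 0.43 (SE). Counting error is wide at this depth. The exact 95% Poisson interval was 4.12 to 17.1 counts for ATM knockout tumor 2 and 13.8 to 33.3 counts for ATM knockout tumor 3. These intervals leave out the spread between tumors, and no support for the difference is read from them. Within the control group the highest tumor stood 2.05 times above the lowest, and in the knockout group 2.34 times. The edgeR call of Ido2 ended without any one of the tumors except vector control tumor 1, while the fold change stayed between -3.46 and -2.86.

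Ido1, the inducible dioxygenase, was present at a few CPM and did not separate the groups. Its counts were 76, 15 and 30 in the control tumors, or 3.36, 0.686 and 1.24 CPM, and 25, 30 and 17 in the knockout tumors, or 1.03, 1.07 and 0.582 CPM. Vector control tumor 1 was the high one, control tumor 2 lay within the range of the knockout tumors, and control tumor 3 lay just above it. The log2 fold change of -0.98 ± 0.61 therefore rested on that tumor, and it was -0.12 without it. In vector control tumor 1 the macrophage and fibroblast marker sums were the lowest of the 6 tumors and the melanocyte sum was the highest. The part of this mix in the Ido1 level was not tested.

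Ido1 and Ido2 lie side by side on the minus strand of chromosome 8 (GRCm38), Ido2 from 24531892 to 24576333 and Ido1 from 24584136 to 24597009, 7.80 kb apart. They are related in sequence, so the coding sequences were compared for stretches that could confuse reads of one with the other. Their coding sequences of 1221 (Ido1) and 1215 bases (Ido2) were identical at 57.1% of aligned columns, and the encoded chains of 407 and 405 residues at 43.6%. The longest stretch shared by both coding sequences, given here 5′ to 3′ in capitals with 30 bases to each side (bases 208 to 282 of either coding sequence, GENCODE M21), was 15 bases.
Ido1: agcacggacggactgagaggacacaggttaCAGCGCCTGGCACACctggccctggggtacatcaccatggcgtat
Ido2: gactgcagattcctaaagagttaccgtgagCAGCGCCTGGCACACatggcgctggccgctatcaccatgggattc
No word of 25 bases occurred in transcripts of both genes, so longer reads of one gene do not match the annotated transcripts of the other exactly.

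Tdo2, the dioxygenase of liver, was close to absent. A single count was found in vector control tumor 3 and none in the other 5 tumors, which allows up to 0.103 to 0.137 CPM per library at 3 counts. The gene did not pass the filter on low counts, and no fold is given.

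**Figure D1:**
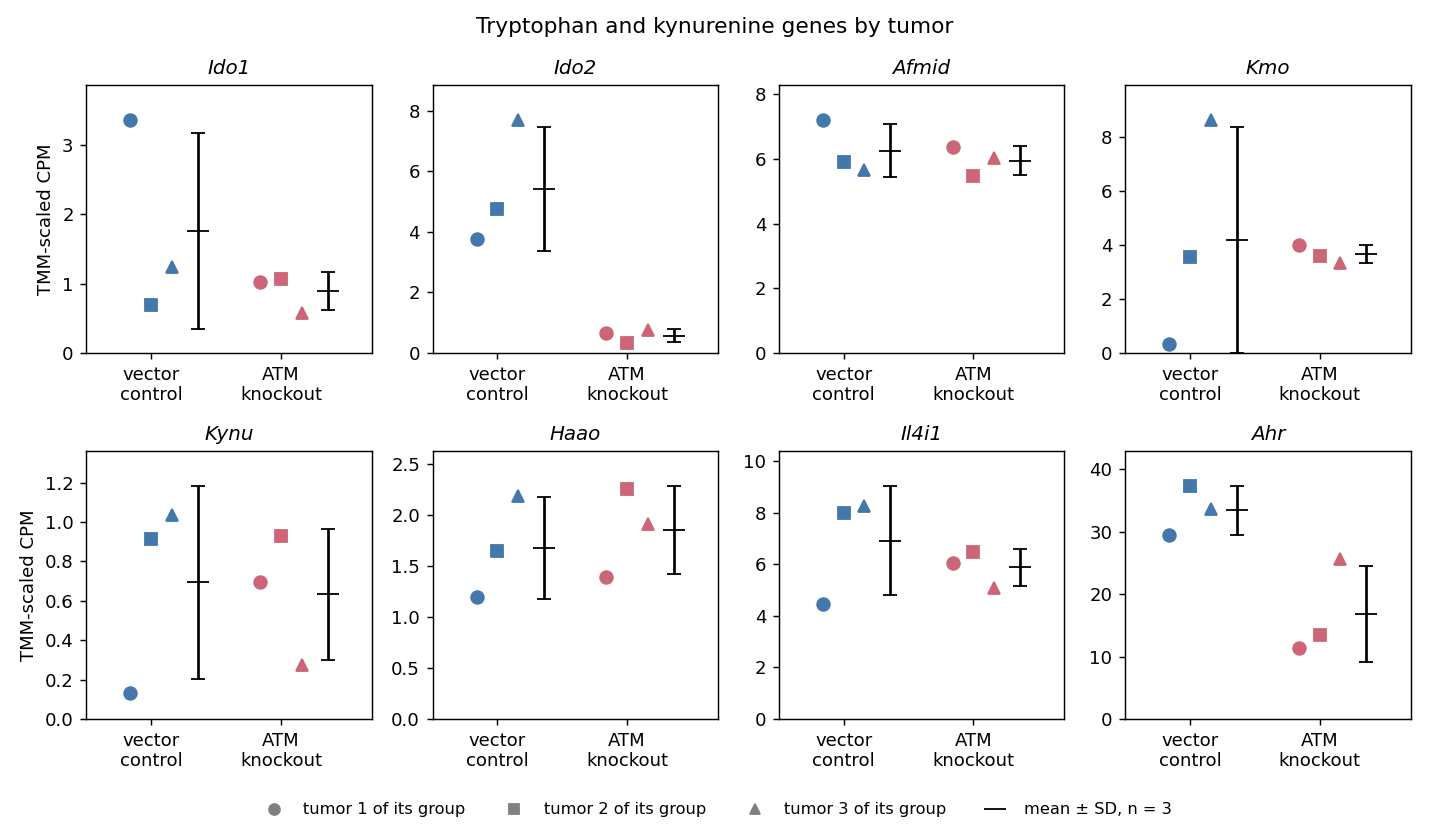
TMM-scaled CPM (vertical axes, each starting at 0) of the 8 tested genes in each of the 6 tumors, by group; bars are mean ± SD of 3 tumors. For Ido2 the knockout tumors sit at 0.322 to 0.753 CPM, below the control tumors at 3.76 to 7.70 CPM, while for Kmo the 3 control tumors spread more widely than the knockout tumors.

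The genes around the Ido pair did not share the size of the Ido2 difference. Within 1 Mb of Ido2 there were 9 tested genes, Ido1 among them, with a median log2 fold change of -0.13, and 6 of them were negative. Tcim, the nearest tested gene on the other side of Ido2 from Ido1, was at 4.21 ± 1.51 CPM in control against 2.80 ± 0.501 CPM in knockout tumors (-0.59 ± 0.33, edgeR adjusted p = 0.349). Adam9, a membrane metalloprotease gene 373 kb from Ido2, was called lower, from 305.9 ± 17.5 to 224.9 ± 14.2 CPM (-0.44 ± 0.08, edgeR adjusted p = 0.0376), a call that held without vector control tumor 1 and ended without any other tumor (0.0577 to 0.145). The 826 tested genes of chromosome 8 had a median of -0.26, against -0.01 over all 15696 tested genes. Whether the level of this chromosome in the injected lines has a part in the Ido2 value was not tested.

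**Figure D2:**
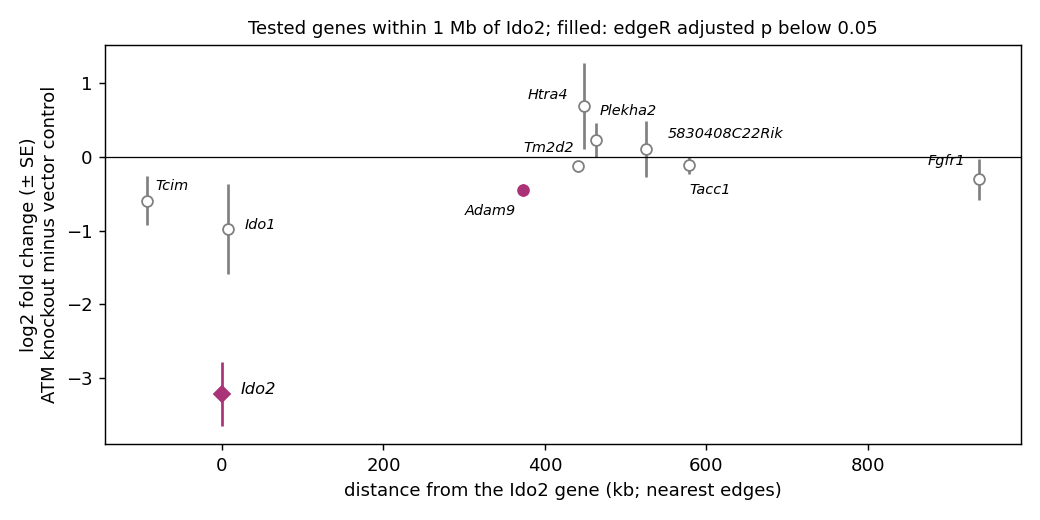
Log2 fold change, ATM knockout minus vector control, with its SE (vertical) of the tested genes within 1 Mb of Ido2 against their distance from it in kb (horizontal). Ido2 at -3.22 lies below the other 9 genes, the lowest of which is its neighbor Ido1 at -0.98, and filled points are genes with an edgeR adjusted p below 0.05.

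Downstream of the dioxygenases, Afmid was the steadiest member. The 3 control tumors had 7.21, 5.90 and 5.67 CPM, and the 3 knockout tumors 6.36, 5.48 and 6.02 CPM. The groups overlapped throughout, and the log2 fold change was -0.07 ± 0.17, or 0.04 without vector control tumor 1. Afmid shares 44.2% of its exon bases with Gm20708 on the same strand, a gene listed at 0 to 2 counts, and how reads of the shared part were assigned is not known. Tk1, the thymidine kinase gene that starts head to head with Afmid on the opposite strand, was at 66.6 ± 0.817 and 59.2 ± 7.17 CPM (-0.17 ± 0.10, edgeR adjusted p = 0.367).

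Kmo, the monooxygenase that turns kynurenine into 3-hydroxykynurenine, varied far more among control tumors than between the groups. It had 8, 78 and 209 counts in vector control tumors 1, 2 and 3, or 0.354, 3.57 and 8.65 CPM, a range of 24.5-fold. In the knockout tumors it had 98, 101 and 98 counts, or 4.02, 3.62 and 3.35 CPM, a range of 1.20-fold. The knockout tumors thus lay inside the control range, near vector control tumor 2. The log2 fold change of -0.20 ± 0.92 had no stable direction: it was 0.91 without vector control tumor 3 and 0.67 in limma-voom. The control tumors had the same order in Kmo and in the macrophage sum (450.3, 980.1 and 1260 CPM). The sum of 8 dendritic cell markers (32.8, 47.1 and 80.8 CPM) had it too. So did the neutrophil, T cell, endothelial, fibroblast, skeletal muscle and keratinocyte sums. Among knockout tumors the dendritic sum kept the order of Kmo, but the macrophage sum was highest in tumor 3 (1117 CPM), where Kmo was lowest. The part of any of these cells in the Kmo level was not tested.

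Kynu, the kynureninase that cleaves kynurenine and 3-hydroxykynurenine, was the scarcest member with more than a single count in the control tumors, and close to Ido2 in the knockout tumors. Its counts were 3, 20 and 25 in control and 17, 26 and 8 in knockout tumors, or 0.133, 0.915 and 1.04 CPM against 0.697, 0.931 and 0.274 CPM. The groups overlapped, and vector control tumor 1 was again the low tumor, with an exact 95% Poisson interval of 0.619 to 8.77 counts. Its log2 fold change of -0.14 ± 0.74 changed sign without vector control tumor 2 (0.12) or 3 (0.29) or ATM knockout tumor 3 (0.23).

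Haao, the dioxygenase of the last step before quinolinic acid forms, was the only tested member with a positive log2 fold change (0.15 ± 0.32). Levels of 1.19, 1.65 and 2.19 CPM in control against 1.39, 2.26 and 1.92 CPM in knockout tumors overlapped almost fully. The sign turned without vector control tumor 1 (-0.05) or ATM knockout tumor 2 (-0.03). Qprt, which turns quinolinic acid into an NAD precursor, had only 3 to 10 counts per tumor and was not tested.

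Il4i1, the amino acid oxidase outside the kynurenine pathway, overlapped between groups as well. It was at 4.47, 8.002 and 8.28 CPM in control against 6.07, 6.48 and 5.10 CPM in knockout tumors, with vector control tumor 1 the lowest and the other control tumors the highest of the 6. The log2 fold change was -0.23 ± 0.27. Exons of Tbc1d17 on the opposite strand cover 83.9% of the Il4i1 exon bases, and the sources used here do not give the strand setting of the counting. Reads of the shared bases cannot be told apart from Tbc1d17 reads here, and the Il4i1 level is uncertain. Tbc1d17 itself was at 21.1 ± 0.530 and 22.9 ± 0.962 CPM (0.12 ± 0.08, edgeR adjusted p = 0.442).

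Ahr, the receptor gene, was the most abundant member and the other one whose groups did not overlap. Vector control tumors 1, 2 and 3 held 665, 814 and 812 counts, or 29.4, 37.2 and 33.6 CPM. ATM knockout tumors 1, 2 and 3 held 278, 375 and 750 counts, or 11.4, 13.4 and 25.7 CPM. Knockout tumors 1 and 2 were clearly below the control tumors, whereas knockout tumor 3 came close to vector control tumor 1. The means were 33.4 ± 3.91 and 16.8 ± 7.72 CPM (SD, n = 3 per group). The log2 fold change was -0.99 ± 0.32, and without ATM knockout tumor 3, where edgeR called Ahr lower, it was -1.42. Ahr lies on chromosome 12 (35497974 to 35535038), where the 560 tested genes had a median of 0.01. None of the 7 tested genes within 1 Mb of Ahr was called, beside 4.96% of all tested genes. Its nearest tested neighbors, Snx13 (-0.05 ± 0.08) and Tspan13 (0.14 ± 0.13), did not pass.

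Around the other members the genes called within 1 Mb were Plekhh2, Tead2 and Tulp2, beside 4.96% of all tested genes called in either direction. None of the 27 tested genes near Afmid, 6 near Kmo, 2 near Kynu and 5 near Tdo2 passed in edgeR. Near Haao, among 10 tested genes, Plekhh2 at 664 kb fell from 7.40 ± 1.40 to 2.43 ± 0.782 CPM (-1.60 ± 0.29, edgeR adjusted p = 0.0365). Near Il4i1, among 80 tested genes, Tead2, a partner of YAP in transcription, rose from 25.2 ± 3.10 to 39.4 ± 4.76 CPM (0.64 ± 0.13, edgeR adjusted p = 0.0455) and Tulp2 from 2.09 ± 0.344 to 4.34 ± 0.505 CPM (1.05 ± 0.22, edgeR adjusted p = 0.0488). Each of these 3 calls held without vector control tumor 1 and ended without any other tumor, with edgeR adjusted p-values of 0.0747 to 0.189, and Tead2 was not called by limma-voom (adjusted p = 0.0505).

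Of the 9 genes 8 passed the filter. Of these, 1 was called by edgeR, Ido2, beside 4.96% of all tested genes called in either direction and 2.75% called lower. Groups did not overlap for 2 of the 8, Ido2 and Ahr, beside 29.7% of all tested genes. DESeq2 called both Ido2 and Ahr lower and limma-voom called Ido2 alone. Fold changes were negative for 7 of the 8 tested genes, with a median of -0.22 beside -0.01 over all tested genes. Signs turned in some alternatives for Afmid, Kmo, Kynu and Haao. Because the list was chosen with this contrast known, nothing is read from these counts or from the median.

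Per transcript length, the order of the members changed between groups mainly through Ido2 (TPM, a length-corrected share of each library, from counts and the union of annotated exons). In control tumors Ahr led with 19.7 ± 2.90 TPM, and the ranges of Afmid (6.41 ± 0.644), Il4i1 (6.20 ± 2.05), Ido2 (5.42 ± 2.14), Ido1 (3.45 ± 2.65) and Kmo (3.27 ± 3.26 TPM) each overlapped that of the next gene, Haao (1.31 ± 0.415 TPM) being the next after Kmo. Kynu (0.416 ± 0.297 TPM) lay below the range of Haao and overlapped that of Kmo, which was low in vector control tumor 1. In knockout tumors Ahr (10.2 ± 4.68 TPM) again led, over Afmid (6.30 ± 0.540) and Il4i1 (5.40 ± 0.636), whose ranges overlapped, and over Kmo (2.91 ± 0.289 TPM). There Ido2, at 0.596 ± 0.236 TPM, lay under Ido1 (1.83 ± 0.555) and Haao (1.48 ± 0.331 TPM) and overlapped Kynu (0.386 ± 0.201 TPM). In every control tumor but the first Ido2 exceeded Ido1 in TPM (4.87 against 1.40 and 7.78 against 2.50, with 3.62 against 6.45 in vector control tumor 1), and in all 3 knockout tumors Ido1 exceeded Ido2. With coding length in place of exon length 2 of the 6 tumors changed order: Ido2 exceeded Ido1 in vector control tumor 1 (4.03 against 3.59 TPM) and in ATM knockout tumor 3 (0.839 against 0.645 TPM).

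**Figure D3:**
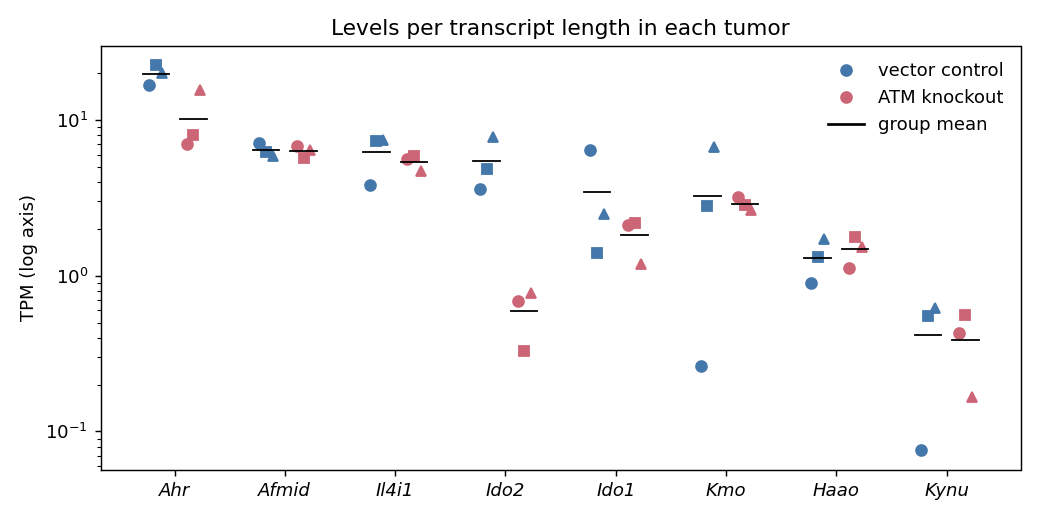
TPM on a log axis (vertical) of the 8 genes with more than 1 count, in the order of their control means, for each tumor; lines are group means and symbol shapes give the tumor number. Ido2 moves from the level of Il4i1 in control tumors to that of Kynu in knockout tumors (5.42 and 0.596 TPM).

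The tested genes whose log2 CPM most resembled Ido2 over the 6 tumors were Rpl22l1 (Pearson r = 0.998), Snx3 (0.996) and Myo9b (0.994). They moved over a much smaller range, for example Rpl22l1, a ribosomal protein paralog, from 17.7 to 12.5 CPM in mean (-0.50 ± 0.10). For Ahr they were Appl1 (0.994), Ankrd37 (0.994) and Irf2bp2 (0.993), and for Kmo Pik3r6 (0.996), Cds1 (0.996) and Camk1d (0.995). Ido1 was most like Gm11734 (0.997), Zfp771 (0.988) and Igsf11 (0.981), Kynu like Syt12 (0.998), Odc1 (0.99) and Grhl1 (0.989), and Haao like Wwp1 (0.988), Gm14584 (0.981) and Pkdcc (0.981). For Il4i1 they were Gm10676 (0.991), Foxc1 (0.989) and Gna12 (0.983), and for Afmid Gm8055 (0.996), Pex5 (0.991) and Lbx2 (0.984). These likenesses over 6 tumors, picked as the highest among 15696 genes and sharing the group difference where there is one, are a description.

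Of the genes for bringing tryptophan into cells and loading it on its tRNA, some were lower in ATM knockout tumors and others were not. Of 8 tested genes of tryptophan uptake and tRNA charging 3 fell and none rose in edgeR, beside the 2.75% of all tested genes called lower. The lists of other pathway genes were chosen with earlier results of these data known, so nothing is read from this count. For the same reason the p-values of list genes are given as a description. Slc7a5 encodes LAT1, the large neutral amino acid transporter that carries tryptophan and kynurenine. It was at 634.7, 612.6 and 527.4 CPM in the control tumors and 302.5, 323.9 and 300.6 CPM in the knockout tumors, so every knockout tumor lay well under every control tumor. The log2 fold change was -0.94 ± 0.09 (edgeR adjusted p = 0.00997). Slc3a2, whose product CD98 is the partner chain of LAT1, fell from 305.4 ± 24.2 to 213.2 ± 9.82 CPM (-0.52 ± 0.08, edgeR adjusted p = 0.0314).

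Slc36a4, a high-affinity transporter of tryptophan and proline, fell from 48.9 ± 2.28 to 35.3 ± 2.12 CPM (-0.47 ± 0.08, edgeR adjusted p = 0.0328). The other tested transporters did not pass: Slc7a8 had a fold change of -0.12 ± 0.28, Slc16a10 of 0.03 ± 0.38 and Slc6a19, at 3 to 24 counts per tumor, of 1.06 ± 0.60 (edgeR adjusted p = 0.862, 0.975 and 0.355). The charging enzyme genes did not pass either: Wars, the cytosolic tryptophanyl-tRNA synthetase, was at 165.1 ± 17.4 and 170.3 ± 12.7 CPM (0.05 ± 0.10, edgeR adjusted p = 0.857), and the mitochondrial Wars2 had a fold change of 0.11 ± 0.09. The list had 4 positive and 4 negative fold changes, with a median of -0.04. DESeq2 and limma-voom also called 3 members lower and none higher. Slc7a5 lies on chromosome 8 (median -0.26 over its tested genes, and -0.34 over the 103 tested genes of its 10 Mb), Slc3a2 on chromosome 19 (median 0.04) and Slc36a4 on chromosome 9 (-0.10). The part of these regional medians was not tested. Without vector control tumor 2 or ATM knockout tumor 1 none of the 3 calls held (edgeR adjusted p = 0.0599 and 0.0787 for Slc7a5), and in the latter case only 2 of all tested genes were called. The fold change of Slc7a5 was -0.88 and -0.92 there. Slc3a2 and Slc36a4 were called without vector control tumor 1 alone, their adjusted p-values being 0.051 to 0.134 and 0.073 to 0.142 without any other tumor.

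**Figure D4:**
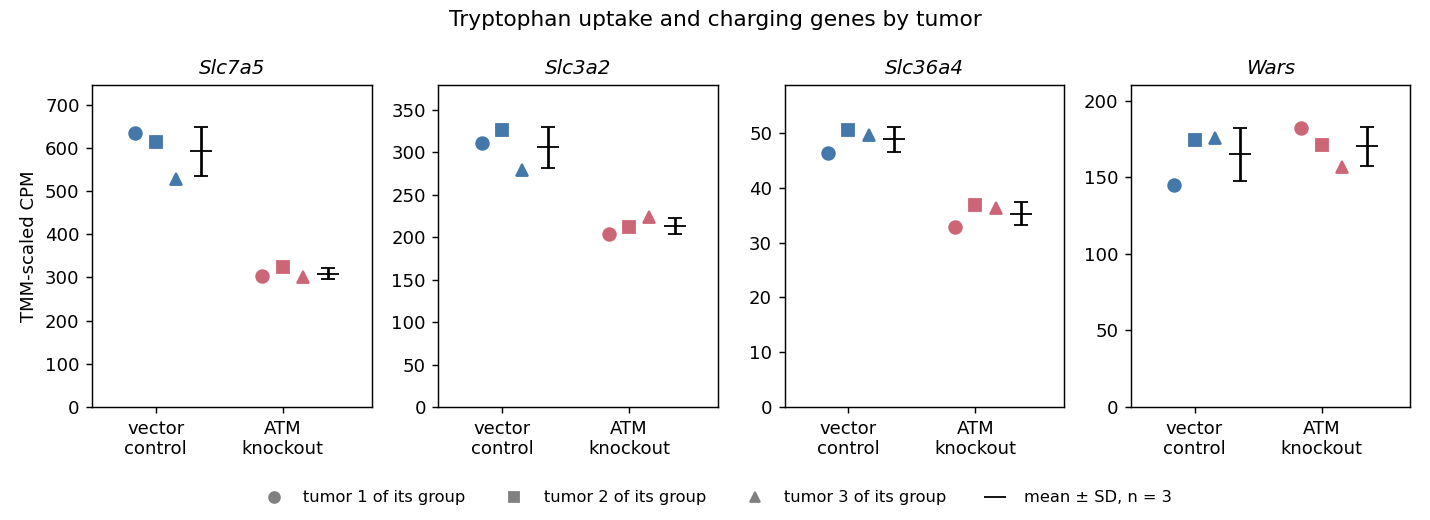
TMM-scaled CPM (vertical axes from 0) of 3 tryptophan transporter genes and of the tryptophanyl-tRNA synthetase gene Wars in each tumor; bars are mean ± SD of 3 tumors. Slc7a5, Slc3a2 and Slc36a4 separate the groups, whereas Wars, at 145.1 to 175.8 CPM in control against 157.1 to 182.4 CPM in knockout tumors, does not.

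Partners and targets of AHR gave 1 call among 9 tested genes, beside 4.96% of all tested genes called in either direction. The called gene was put on the list with its difference in this comparison already known, so it is described without a p-value and nothing is read from the count. Arnt2, a dimerization partner closely related to ARNT, was at 4.42, 9.01 and 7.29 CPM in the control tumors and 0.779, 0.895 and 1.47 CPM in the knockout tumors, a log2 fold change of -2.71 ± 0.38 with groups that did not overlap. Arnt, the usual partner of AHR, was at 119.8 ± 4.69 and 124.3 ± 7.23 CPM (0.05 ± 0.07, edgeR adjusted p = 0.732). The call of Arnt2 ended without vector control tumor 2 or 3 or ATM knockout tumor 1 or 2, where fold changes lay between -2.66 and -2.45. Without vector control tumor 1 the list gave 3 calls, 1 higher and 2 lower, where 1209 of all 16116 tested genes were called.

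AHR target genes of the list are named here outside the naming rule and after their values were seen. Nqo1 and Scin were higher in mean in knockout tumors, and Cyp1a1, Cyp1a2, Ahrr, Cyp1b1 and Tiparp were lower. None of those tested was called. Cyp1a1, the classic induced target, had 1 count in each control tumor and 0 in each knockout tumor, and Cyp1a2 had a single count in all, too few to test. Ahrr, the AHR repressor, was at 5.56 ± 1.12 and 3.70 ± 0.382 CPM (-0.59 ± 0.21, edgeR adjusted p = 0.161), with groups that did not overlap. Nqo1, a quinone reductase gene that NRF2 also drives, had the opposite sign, at 2.26 ± 0.982 and 5.60 ± 0.947 CPM (1.31 ± 0.37, edgeR adjusted p = 0.0991), again without overlap. Cyp1b1 ranged from 1.02 to 23.7 CPM among control tumors, with the same order of tumors as Kmo, and from 4.21 to 4.55 CPM among knockout tumors. The macrophage, fibroblast and several other marker sums had that order of control tumors too, and their part was not tested. The log2 fold change of Cyp1b1 was -1.43 ± 0.96 (edgeR adjusted p = 0.449). Tiparp was at 93.9 ± 22.7 and 71.0 ± 18.2 CPM (-0.40 ± 0.24, edgeR adjusted p = 0.381). Scin was at 0.773 ± 0.103 and 1.06 ± 0.397 CPM (0.45 ± 0.35, edgeR adjusted p = 0.52). Ugt1a6a and Aldh3a1 had too few counts to test. In DESeq2 the list had 1 gene higher and 1 lower.

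The aminotransferase and side branches of the kynurenine pathway had no called gene in edgeR among 4 tested of 8 listed, beside 4.96% of all tested genes. In each direction 1 gene had an unadjusted edgeR p under 0.05. DESeq2 called 1 gene of the list higher and limma-voom none. Kyat3, one of the enzymes that makes kynurenic acid, was at 10.8, 11.6 and 10.8 CPM in control against 18.8, 20.3 and 12.1 CPM in knockout tumors. All knockout tumors were higher, tumor 3 by little (0.63 ± 0.20, edgeR adjusted p = 0.131; DESeq2 adjusted p = 0.0467), and without ATM knockout tumor 3 the gene was called (0.83, edgeR adjusted p = 0.0489). Got2, a mitochondrial aminotransferase that also makes kynurenic acid, was at 247.3 ± 19.4 and 212.3 ± 8.14 CPM (-0.22 ± 0.08, edgeR adjusted p = 0.167). It lies on chromosome 8 (median -0.26 over its tested genes, and -0.24 over the 74 tested genes of its 10 Mb), and the part of these medians was not tested. Kyat1 was at 9.45 ± 0.934 and 9.15 ± 0.721 CPM (-0.05 ± 0.14). Aadat was at 0 in all tumors, and Acmsd and Aldh8a1 had at most 3 counts in any tumor.

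In the serotonin branch none of 3 tested genes of 7 passed in edgeR, DESeq2 or limma-voom, or at an unadjusted p below 0.05. Of all tested genes 4.96% were called in edgeR. Tph2, a tryptophan hydroxylase, was high in vector control tumor 1, at 11.3 CPM, with 1.05 and 1.28 CPM in the other control tumors and 2.18 to 2.79 CPM in the knockout tumors. Those other control tumors lay below all knockout tumors. Its log2 fold change of -0.91 ± 0.94 was 1.04 without vector control tumor 1 (edgeR adjusted p = 0.0608). Maoa (-0.09 ± 0.09) and Maob (-0.92 ± 1.01), the monoamine oxidases, had edgeR adjusted p-values of 0.632 and 0.661.

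Among 8 tested genes for sensing amino acid shortage and for the response to it, the gene of the kinase GCN2 included, none was called in edgeR or limma-voom. Of all tested genes 4.96% were called in edgeR. Fold changes were negative for 7 of the 8, with a list median of -0.35 beside -0.01 over all tested genes. Of the negative ones 2 had an unadjusted edgeR p below 0.05. Asns, the asparagine synthetase gene and an ATF4 target, was at 162.8, 269.2 and 204.6 CPM in control against 112.3, 127.9 and 128.8 CPM in knockout tumors. The groups did not overlap, as for 3 of the 8 genes and for 29.7% of all tested genes. The log2 fold change of Asns was -0.79 ± 0.18 (edgeR adjusted p = 0.0654). The gene was called by DESeq2 (adjusted p = 0.000654) and by edgeR without vector control tumor 1 (-0.94, adjusted p = 0.018). Atf4 was at 252.0 ± 53.5 and 188.5 ± 21.9 CPM (-0.42 ± 0.17, edgeR adjusted p = 0.203). Eif2ak4, which encodes GCN2, was at 45.8 ± 2.87 and 51.1 ± 2.25 CPM (0.16 ± 0.08, edgeR adjusted p = 0.270).

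Known inducers and regulators of IDO expression had no call among 17 tested genes in edgeR, DESeq2 or limma-voom, and none had an unadjusted p below 0.05. Of all tested genes 4.96% were called in edgeR. The median log2 fold change of the 17 genes was -0.03. Ifng, the main inducer of Ido1, had 27, 16 and 46 counts in control and 78, 42 and 49 in knockout tumors (0.73 ± 0.45, edgeR adjusted p = 0.407). Socs3, an inhibitor of cytokine signaling, was at 43.8 ± 3.06 and 39.1 ± 5.71 CPM (-0.17 ± 0.12). For none of the 17 did the groups separate, beside 29.7% of all tested genes whose groups did not overlap.

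Of 15 tested genes of NAD salvage and use 1 rose and none fell in edgeR, beside 2.21% of all tested genes called higher. Nadk2, the mitochondrial NAD kinase gene, was at 26.5, 21.99 and 25.1 CPM in control against 32.7, 34.4 and 36.7 CPM in knockout tumors, without overlap (0.50 ± 0.10, edgeR adjusted p = 0.0441). That call ended without any one of the 6 tumors except vector control tumor 1, with edgeR adjusted p-values from 0.0898 to 0.152. DESeq2 called 3 members higher and 1 lower and limma-voom 1 higher. Over all 7 lists of other pathway genes 64 were tested, with 1 called higher and 4 lower. These calls are 7.81% of the 64, beside 4.96% of all tested genes called in either direction. Arnt2, chosen with its difference known, was among the 4 lower ones, and nothing is read from this count.

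**Figure D5:**
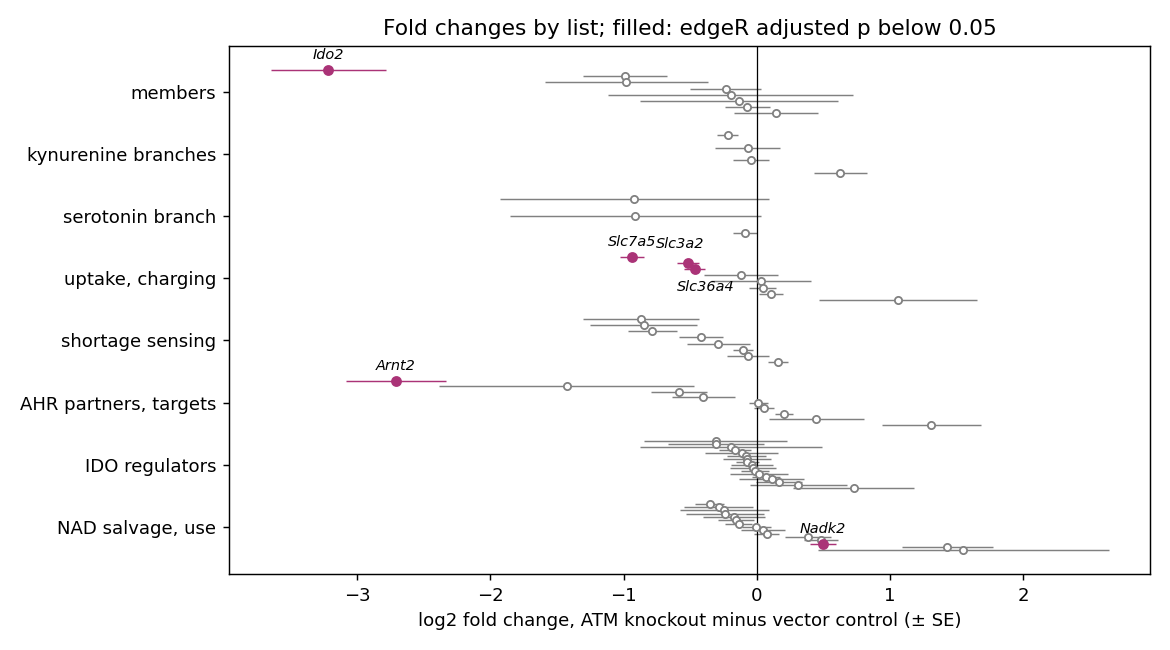
Log2 fold change, ATM knockout minus vector control, with its SE (horizontal) for every tested gene of the members and of the 7 other lists (vertical); filled points have an edgeR adjusted p below 0.05. Ido2 (-3.22) and Arnt2 (-2.71) lie furthest to the left, and Slc7a5, Slc3a2 and Slc36a4 are the called genes of tryptophan uptake.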

How the data were processed

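Each deposited file lists the raw read count of every gene in 1 library. Per the submitters' processing notes, the tools were Trim Galore, cutadapt, STAR, with SAMtools and HTSeq, and the builds GRCm38 and mm10. The sources used here do not give their versions, roles or strand setting. All 55536 identifiers and symbols matched GENCODE M21, the source of coordinates, exon lengths and transcript sequences. Rows naming no gene were left out: 16.7% to 18.2% of listed reads lay outside genes and 1.21% to 1.38% on several genes.

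Genes were filtered (filterByExpr, minimum count 10, minimum total 15), scaled by TMM and tested with edgeR 4.0.16 (robust quasi-likelihood F test, genotype as the term), with Benjamini-Hochberg adjustment over 15696 genes. The code was tested on simulated data. Alternatives used other scalings, filters and thresholds, DESeq2 1.42.0, limma-voom (limma 3.58.1), non-robust dispersions, a replicate block and each tumor left out.

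The members and lists were chosen with earlier results of these data known. Named are all members, every called list gene or else the 3 with the smallest p, called genes within 1 Mb of a member and its nearest tested neighbors, and the 3 genes most like a member in log2 CPM (prior count 2); of the nearest neighbors the text prints examples, and 1 list gene is not reported here. Intervals and limits at 3 counts cover counting error only.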

Additional observations from a re-analysis of the deposited data

How the results depend on the processing

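The number of called genes depended strongly on the tumors and the tool. Over all genes it was 778, with 1919 in DESeq2, 1699 at an adjusted p below 0.10 and 0 with the replicate block, and leaving out each tumor gave 2 to 1209. The numbers do not pair tumors by the labels, and same-numbered tumors did not deviate together (r = 0.0437, -0.272 and -0.42), and 1 of the 6 tumors, ATM knockout tumor 1, was most like its own number. With the replicate block 0 members, 0 uptake genes, 0 AHR partners and targets and 0 NAD genes were called. Members called numbered 2 in DESeq2 and 0 to 1 without each tumor. Ido2 was called in 8 of 14 alternatives, and its log2 fold change lay between -3.46 and -2.86 in all 14. Leaving out each tumor gave 0 to 3 calls for uptake genes, 0 to 1 for kynurenine branches, 0 to 1 for shortage sensing, 0 to 3 for AHR partners and targets and 0 to 4 for NAD genes. In DESeq2 these were 1 for kynurenine branches, 1 for shortage sensing, 2 for AHR partners and targets and 4 for NAD genes. At an adjusted p below 0.10 shortage sensing had 1, AHR partners and targets 2 and NAD genes 3, and NAD genes had 2 without a filter on low counts. The cause was not tested.

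Signs turned for Afmid (0.043 without vector control tumor 1), Kmo (0.667 in limma-voom, 0.466 with the replicate block, 0.913 without vector control tumor 3), Kynu (0.103 in limma-voom; 0.121, 0.287 and 0.229 without vector control tumor 2, vector control tumor 3 or ATM knockout tumor 3) and Haao (-0.047 and -0.025 without vector control tumor 1 or ATM knockout tumor 2). They also turned for Kyat1 (0.004 with library size alone; 0.030 and 0.007 without vector control tumor 1 or ATM knockout tumor 3), Maoa (0.038 without vector control tumor 2), Tph2 (1.041 without vector control tumor 1) and Maob (0.144 in limma-voom). With library size alone 504 genes were called higher and 356 lower, against 347 and 431. Without each tumor the fold changes ranged over -0.128 to 0.043 for Afmid, -0.738 to 0.913 for Kmo, -0.623 to 0.287 for Kynu, -0.047 to 0.398 for Haao, -0.111 to 0.030 for Kyat1, -0.145 to 0.038 for Maoa and -1.342 to 1.041 for Tph2. Using coding length for TPM put Ido2 (5.97) above Il4i1 (4.85 TPM) in control tumors and turned the order of Ido1 and Ido2 in 2 tumors, and transcript length put Il4i1 (8.71) above Afmid (7.64 TPM). At 3 to 26 counts per tumor, Kynu and the knockout level of Ido2 are limited by depth.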
